A study of Caenorhabditis elegans with 4 samples.

Results

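The arms of chromosome V, the largest chromosome of the nematode Caenorhabditis elegans, carried 784 of the 10731 peaks in a map of RNA polymerase II (Pol II) at the L4 stage. The left arm held 396 peaks and the right arm 388. An arm was taken as the outer segment on either side when the span from 0 to the end of the last listed peak on V, 20.8 Mb, was divided into 3 equal parts of 6.95 Mb each, and a peak was placed by its midpoint. The map was made by chromatin immunoprecipitation and sequencing (ChIP-seq) from wild-type hermaphrodites of the strain N2, with 2 ChIP DNA samples and 2 input DNA samples (sheared chromatin without immunoprecipitation). The worms were grown at 20 °C, fixed with 2% formaldehyde at L4, the last larval stage, and 8WG16, a mouse monoclonal, is the labelled antibody of the ChIP samples, raised against the C-terminal repeats of the largest Pol II subunit. A protocol attached to the samples mentions embryos and GFP instead, and the stage and antibody labels were followed. All samples were whole animals, so a peak gives no cell type. The authors deposited 1 list, named as combined over samples, with a single q-value per peak. There is thus no replicate spread to set a difference against, no test between segments was made, and sequencing depth is unknown.

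Pol II transcribes all protein-coding genes, and its peaks mark where it sits on the template, often at gene starts and over strongly transcribed gene bodies. In C. elegans the autosome arms recombine more, hold more repeats and more young gene families, and have more chromatin of the silent type bound at the nuclear periphery than the centres. The arms of V are known for large clusters of chemoreceptor genes, many of them used in a few sensory neurons, and for clusters of nuclear hormone receptor and detoxification enzyme genes. The listed positions are of genome build WS190. No gene was assigned to a peak, and no sequence of a peak was read, because a genome and annotation of that build were not used here.

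Both arms of V were sparse in listed Pol II peaks, and about equally so. The left arm had 57.0 peaks per Mb and the right arm 55.8, a ratio of 1.02 with an exact binomial interval of 0.885 to 1.18. Such intervals treat peaks as independent and cover counting error within the list only. The outer segments of II, III and IV, defined in the same way, ranged from 74.4 peaks per Mb (II left) to 137 (III right), so either arm of V lay below all 6 of them. Against the 3325 peaks on the 31.0 Mb of those 6 segments together, the density ratio was 0.532 (0.478 to 0.590) for the left arm and 0.521 (0.468 to 0.579) for the right.

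The length covered by peaks differed less than the number of peaks. Peaks covered 372 kb or 5.35% of the left arm and 360 kb or 5.19% of the right arm. The 6 outer segments of II, III and IV were covered from 6.34 to 9.38%, and the ratios of coverage were 0.699 and 0.678. Of these 6 segments, II left at 6.34% and IV right at 6.35% were nearest to the arms of V, and the left outer segment of X had 5.25%.

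Within the arms, peak density was uneven from one megabase to the next. Over the 6 full 1 Mb bins of the left arm the mean was 50.3 ± 18.5 peaks (SD over bins), and over those of the right arm 52.0 ± 16.4. These SDs describe unevenness along the chromosome, not error between samples. The sparsest bin of the left arm, 3000001 to 4000000, held 25 peaks, and the densest, 4000001 to 5000000, held 76. On the right arm the lowest bin was 16000001 to 17000000 with 38 peaks and the highest 14000001 to 15000000 with 82. Fewer than 60 peaks were found in 4 of 6 left bins and 5 of 6 right bins, against 4 of the 26 full bins in the outer segments of II, III and IV, where the bins ranged from 34 to 159. All 4 of those low bins lay on II left and IV right, with 2 on each, so bins under 60 peaks also occurred on other arms, although none was as low as the 25 peaks of V left.

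Neither arm showed a steady rise from its end towards the centre. When each arm was cut into 10 steps of equal length, the outermost step held 54.7 peaks per Mb on the left and 83.5 on the right. The minimum was well inside the arm in both cases, at 8.63 peaks per Mb (6 peaks) in step 5 from the left end and 21.6 (15 peaks) in step 6 from the right end. The innermost steps rose again to 89.2 and 92.1. Such dips also occurred on II left, with 5.89 peaks per Mb (3 peaks) in step 4, and on IV right, with 12.0 (7 peaks) in step 3. No peak of the strongest decile of the whole list (−log10 q of at least 29.1) fell in that sparsest step of the left arm, where the strongest peak had a −log10 q-value of 5.91. The sparsest step of the right arm held 1 such peak, at 143.

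**Figure D1:**
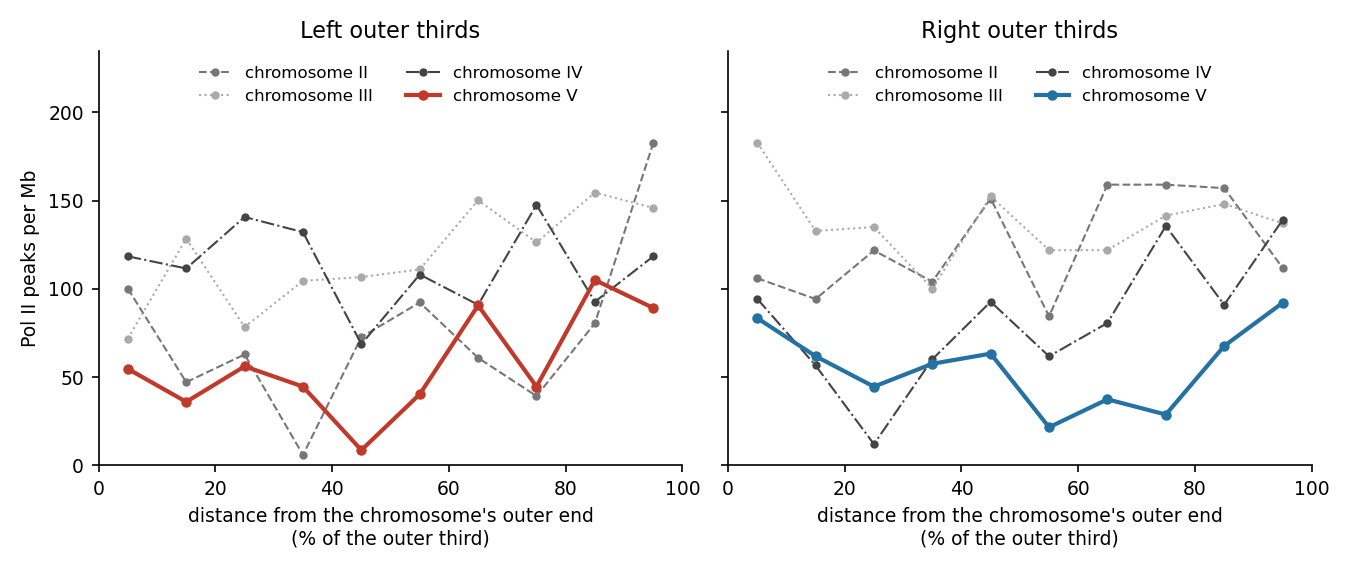
Pol II peaks per Mb (vertical axis) in 10 equal steps of each outer chromosome segment, from the chromosome's outer end (0%) to the border with the middle segment (100%), for left (first panel) and right (second panel) segments of II, III, IV and V. The arms of V fall to 8.63 and 21.6 peaks per Mb in their middles and end at 89.2 and 92.1 beside the centre, and II left and IV right dip to 5.89 and 12.0.

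The low density of V arms went with long stretches that held no peak. Both come from the same peak positions, so the stretches describe the low density and are no separate finding. A peak-free stretch was defined as a gap of at least 50 kb between neighbouring peaks of the same arm. Depth is unknown, and so is how well reads could be placed along the arms. A stretch without a listed peak was therefore not shown to be free of Pol II. The left arm had 35 such stretches with a total of 3.74 Mb, or 53.8% of the arm, and the right arm had 36 with 3.93 Mb, or 56.5%. In the outer segments of II, III and IV stretches took from 9.94% (III right) to 47.2% (II left), with 47.1% on IV right. The outer segments of X, at 55.0 and 70.8 peaks per Mb, had 46.7% and 36.9% in stretches, so low densities and long stretches also occurred on X. Gaps of at least 100 kb numbered 15 on either arm of V and from 0 to 9 on the other 6 segments. Stretches per Mb, however, were 5.04 and 5.18 on V and 5.15 on IV right, so IV right had as many per Mb and V had longer ones. The median stretch was 84.1 kb on V left, 86.1 kb on V right and 69.6 kb over the 6 other segments.

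The 3 longest stretches of an arm were mostly bordered by weak peaks. On the left arm they ran from 2250487 to 2600626 (350 kb), from 2905851 to 3195131 (289 kb) and from 3391529 to 3578913 (187 kb). The peaks on their borders had −log10 q-values of 2.90 and 4.10, 2.32 and 3.25, and 5.91, whereas the peak that closed the last of them, 3578914 to 3586664, was 7751 bp wide and had 84.7. On the right arm the longest ran from 19645800 to 19892970 (247 kb), from 17357557 to 17598214 (241 kb) and from 17128253 to 17355005 (227 kb). All peaks beside these had −log10 q-values from 2.17 to 6.68.

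In places only scattered peaks, in islands of at most 3 peaks each, broke a series of stretches. The longest such region of each arm was as follows. Between the peak ending at 2731811 and the peak starting at 3578914 on the left arm, 847 kb held 6 peaks with a total length of 2.16 kb, the strongest of them at a −log10 q-value of 5.91. Between 16965996 and 17845419 on the right arm, 879 kb held 5 peaks with a total of 4.61 kb, the strongest at 6.68. Among the outer segments of II, III and IV the longest regions of this kind were 714 kb on IV right and 673 kb on II left, and of the other 4 segments 3 had one, of 251 kb at most.

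Outside the stretches, the arms of V were much closer to other arms. The span left after the stretches were removed was 3.21 Mb on the left arm and 3.02 Mb on the right, and there the density was 123 and 128 peaks per Mb. The outer segments of II, III and IV had 141 to 157 outside their stretches. The ratios rose from 0.532 to 0.816 on the left and from 0.521 to 0.850 on the right. In covered length the direction turned: peaks took 11.6% and 11.9% of the span outside stretches on V and 9.78 to 12.0% on the other 6 segments, with ratios to their pooled value of 1.07 and 1.11. Removing gaps raises any density, and it raises it most where gaps are long, so these values describe how the sparseness is arranged and are not a test. Beside the middle segment of V itself, which held 654 peaks at 94.1 per Mb with 23.3% in stretches, the arms were about equally dense outside stretches (123 per Mb in the middle segment, ratios of 1.01 and 1.05).

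**Figure D2:**
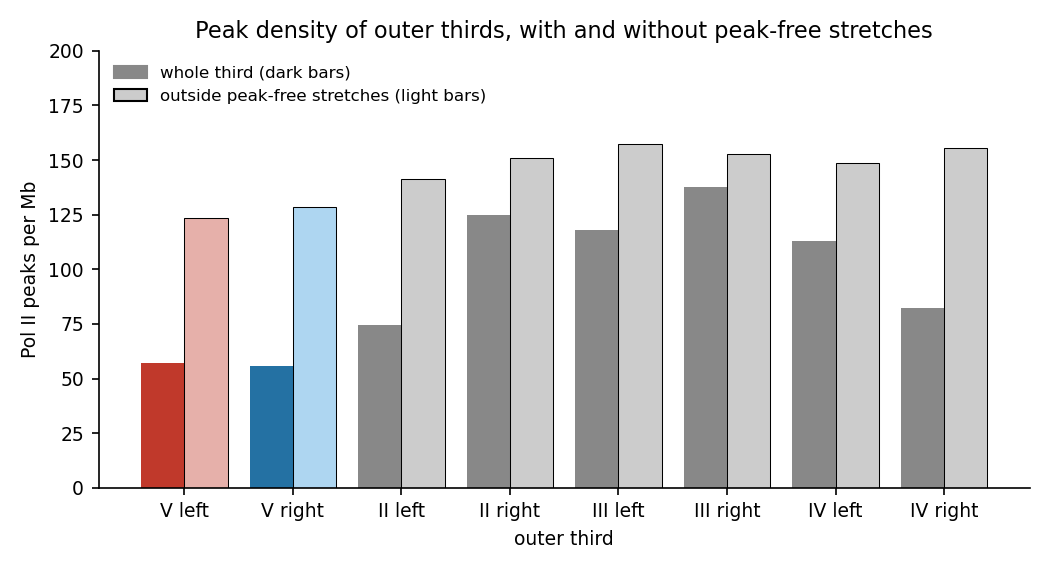
Pol II peaks per Mb in the outer segments of V (coloured) and of II, III and IV (grey), over the whole segment (dark bars) and over the part outside peak-free stretches of at least 50 kb (light bars). The arms of V stand at 57.0 and 55.8 over the whole segment and at 123 and 128 outside stretches, where the other segments range from 141 to 157.

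Over all gaps, stretches included, the median was also longer on V than on the outer segments of II, III and IV. The median gap was 3259 bp on the left arm and 3013 bp on the right, and 1611 to 2182.5 bp on the 6 other segments. On the left and right outer segments of X it was 5397.5 and 3148 bp. Gaps under 1 kb were 30.1% (119 of 395) and 27.9% (108 of 387) of all gaps on V arms against 33.6 to 42.3% elsewhere. Gaps from 10 to under 50 kb were 22.5% and 22.0% against 16.3 to 19.3%. In the class from 1 to under 10 kb the values overlapped, with 38.5% and 40.8% on V and 36.8 to 46.5% on the others. Shares of short gaps move with density, so they say nothing of clustering beyond it.

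**Figure D3:**
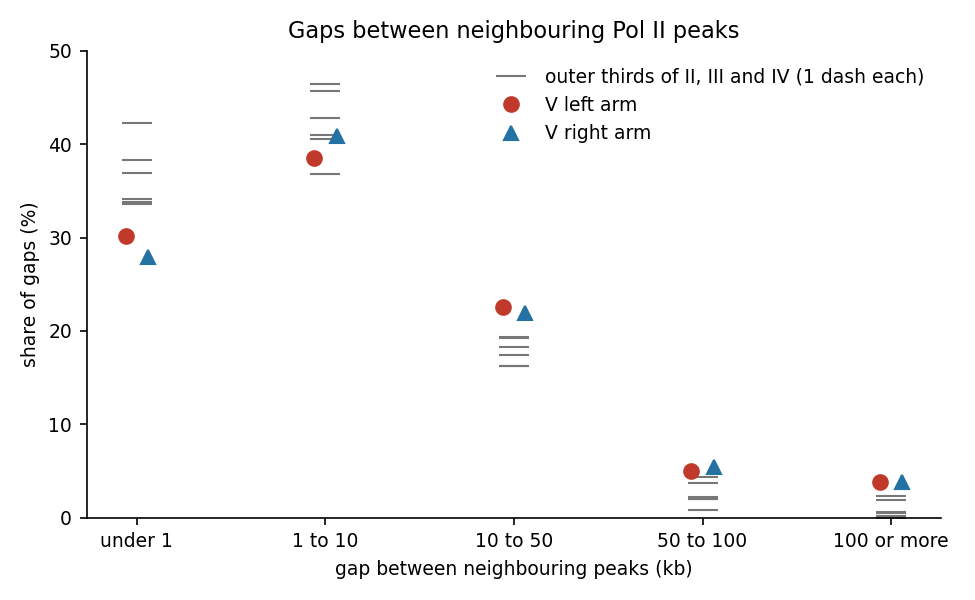
Share of gaps between neighbouring Pol II peaks (%, vertical axis) in 5 classes of gap length (kb) for V left (circle), V right (triangle) and each outer segment of II, III and IV (dashes). V arms lie below the dashes under 1 kb, above them from 10 kb upwards and among them from 1 to 10 kb.

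The stretches divided the left arm into 36 islands of peaks and the right arm into 37. The median island had 5.5 peaks over 45.4 kb on the left and 6 peaks over 50.9 kb on the right. Over the 6 segments of II, III and IV together 110 islands had a median of 17 peaks over 111 kb, although II left and IV right, with medians of 8 peaks over 53.1 and 42.1 kb, were close to V. The largest island of V held 57 peaks, whereas the largest on the other segments held from 103 (II left) to 154 (III right). The largest island was thus smaller on either arm of V than on any of these 6 segments. Island sizes come from the same gaps as the stretches, so they are no separate finding either. Peaks in islands of 10 or more made up 85.4% of the left arm (16 islands), 72.4% of the right (11 islands) and 86.7 to 100% of the other segments.

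On the left arm the islands with the most peaks spanned 4434407 to 4755725 (44 peaks in 321 kb, 14.7% covered), 6606063 to 6892173 (36 peaks in 286 kb, 8.89% covered) and 1764956 to 2135823 (35 peaks in 371 kb, 8.08% covered). On the right arm they spanned 17845419 to 18160250 (57 peaks in 315 kb, 15.01% covered), 14267549 to 14691884 (45 peaks in 424 kb, 9.34% covered) and 13906335 to 14200549 (32 peaks in 294 kb, 9.34% covered). The island of 57 peaks directly followed the 879 kb sparse region. It was dense but not strong, with a median −log10 q-value of 3.86 and a maximum of 53.1. The last of the right-hand islands adjoins the border with the middle segment, and its neighbour across that border lay 12.5 kb away, so the island continues there. At the left border the gap across it was 106 kb.

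A pair of small islands was densely covered by Pol II peaks; they were picked after their values were seen. The outermost island of the left arm, 5984 to 30340, held 6 peaks that covered 85.1% of its 24.4 kb, with a median width of 3645.5 bp and a strongest value of 49.2. Near the right end, 20391224 to 20420511 held 14 peaks that covered 65.1% of 29.3 kb, with a strongest value of 228. The longest chain of peaks less than 1 kb apart on the right arm lay in it, with 9 peaks from 20397036 to 20415707. On the left arm the longest chain had 10 peaks, from 6006507 to 6019512, and peaked at 23.3. Chains of at least a pair of peaks took in 48.2% of left and 43.8% of right peaks, and whether a chain is 1 bound stretch listed in pieces was not tested.

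**Figure D4:**
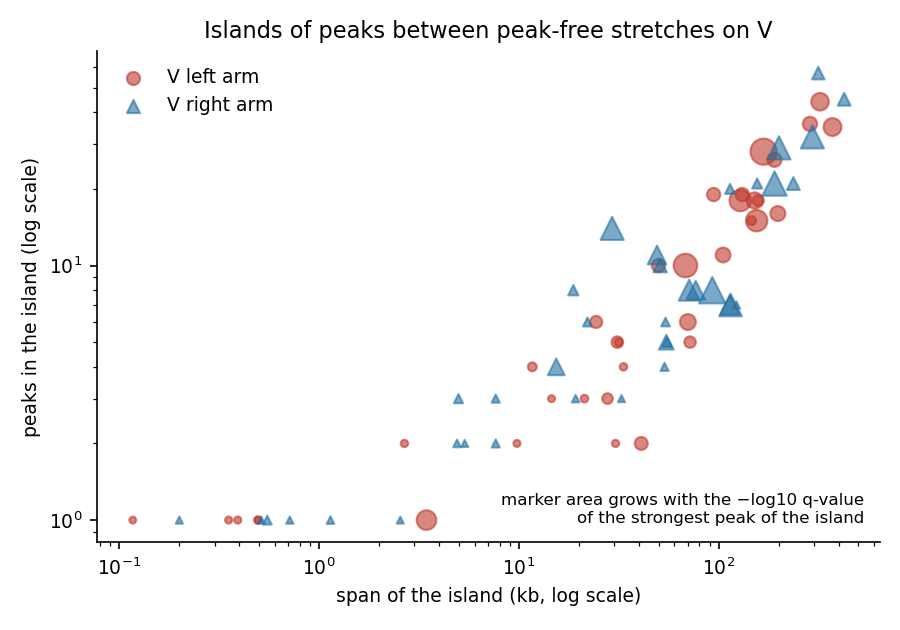
Islands of Pol II peaks between peak-free stretches on the left (circles, 36 islands) and right (triangles, 37 islands) arm of V, by span (kb, log scale) and number of peaks (log scale); the marker grows with the −log10 q-value of the island's strongest peak. The largest islands hold 44 and 57 peaks, and 1 single-peak island of the left arm reaches 159.

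Some of the strongest peaks of the list lay within these sparse arms. On the left arm the smallest q-values belonged to 5838599 to 5847073 (8475 bp, q = 5.76e-300), 4186211 to 4190466 (4256 bp, q = 1.93e-238), 6425639 to 6431818 (6180 bp, q = 3.63e-194), 4820029 to 4827576 (7548 bp, q = 3.79e-193) and 1261615 to 1265064 (3450 bp, q = 3.06e-159). The last of these was alone in its island, 53.1 kb from its left and 107 kb from its right neighbour. On the right arm they were 14828282 to 14837419 (9138 bp, q = 2.96e-303), 18637506 to 18640147 (2642 bp, q = 2.11e-256), 20772098 to 20781262 (9165 bp, q = 1.42e-231), 20401969 to 20409266 (7298 bp, q = 1.77e-228) and 13907432 to 13909806 (2375 bp, q = 1.42e-226). Of these 10 peaks, the 4 strongest of the left arm lay beyond 4 Mb from the left end, whereas those of the right arm were spread from the centre border to the last 100 kb of the span.

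Strong peaks as a share of all peaks were about as frequent as on other arms. Peaks of the strongest decile numbered 34 (8.59%) on the left and 41 (10.6%) on the right, within the range of 7.12 to 13.5% on the 6 other segments. Peaks with a −log10 q-value of at least 100 numbered 10 (2.53%) and 14 (3.61%), against 0.528 to 3.34% on the others, so the right arm lay just above them. The median −log10 q-value was 4.92 (order-statistic interval 4.45 to 5.35) on the left and 4.45 (3.96 to 5.13) on the right. The medians of the other segments ran from 4.69 (II left) to 6.20 (II right), so the left arm fell among them and the right arm below, with an interval that includes the value of II left. Values under 3 made up 22.2% of left and 29.1% of right peaks, against 17.8 to 28.8% on the other segments. The left arm thus fell among them and the right arm just above.

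Peaks that bordered a stretch were somewhat weaker by their median on both arms, and the arms differed in how many of them were strong. Peaks beside a stretch had a median −log10 q-value of 4.67 on the left against 4.99 for the others, and 3.67 against 4.57 on the right. The strongest decile held 10 of 64 peaks beside a stretch and 24 of 332 others on the left (15.6 and 7.23%), and 6 of 66 and 35 of 322 on the right (9.09 and 10.9%). No test of this difference in direction between the arms was made. Islands of 1 to 3 peaks, 13 on either arm, held 23 and 24 peaks with medians of 3.25 and 3.52, and those of the right arm held none of the strongest decile while those of the left held 3. At least 1 peak of the strongest decile occurred in 22 of 36 left and 17 of 37 right islands. Over the outer segments of II, III and IV together such a peak occurred in 77 of 110 islands. These ran from 9 of 24 on II left to 7 of 7 on III right, with 19 of 31 on IV right. On the outer segments of II, III and IV the medians beside a stretch differed in direction. They were lower than elsewhere on II left (3.22 against 4.82) and II right (4.92 against 6.32). On III left (8.21 against 5.17), III right (6.41 against 5.72) and IV left (6.01 against 5.88) they were higher. On IV right they were almost equal (4.87 against 4.86).

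Peaks on V arms were wide. The median width was 540.5 bp (487 to 590) on the left and 480 bp (435 to 543) on the right, and the medians of the other segments ran from 367 bp (III right) to 472 bp (II left), which lies within the interval of the right arm. Broad peaks of at least 2 kb numbered 43 (10.9%) and 42 (10.8%), against 5.55 to 8.71% on the others. They took 42.7% and 47.9% of the covered length, against 31.1 to 43.2% on the others. Widths of at least 5 kb were found in 6 (1.52%) and 10 (2.58%) peaks, against 0.786 to 2.11%. In both of these shares the left arm fell among the other segments and the right arm lay above them. The widest on the left were the 8475 bp and 7548 bp peaks named above and 3578914 to 3586664 (7751 bp, q = 1.89e-85). On the right the widest, 16777603 to 16788617, was 11015 bp (q = 1.57e-143), and the 9165 bp and 9138 bp peaks followed. Peaks narrower than 100 bp were 4.55% of the left and 7.73% of the right arm, against 5.83 to 11.2%. The middle segment of V had a median of 503 bp and 10.4% of broad peaks, between or near the values of its arms. The left and right outer segments of X had medians of 556 and 527 bp with 12.9% and 9.57% of broad peaks. Wide peaks were thus not limited to the arms of V.

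In width classes from 250 to under 2000 bp, V arms had lower median −log10 q-values than the pooled outer segments of II, III and IV. In the class of 250 to under 500 bp, median −log10 q was 4.14 (3.67 to 4.56) on the left and 3.96 (3.34 to 5.01) on the right against 5.34 (5.08 to 5.56). From 500 to under 1000 bp it was 5.83 (4.88 to 6.95) and 4.92 (3.71 to 6.38) against 8.88 (8.13 to 9.39). From 1000 to under 2000 bp it was 8.64 (6.42 to 12.4) and 13.8 (9.63 to 17.5) against 18.8 (16.5 to 22.6), where the interval of the right arm overlaps. Below 100 bp and from 2000 bp upwards the intervals of both arms overlapped the pooled ones, as did that of the left arm from 100 to under 250 bp. In that class the right arm had 2.69 (2.51 to 3.18) against 3.29 (3.18 to 3.40). These intervals cover counting error over peaks within the list only, so whether they overlap is no test between segments. II left had similar medians of 4.26 and 5.69 in the classes from 250 and from 500 bp. The middle segment of V had 3.95 and 5.97 in these classes. From 1000 to under 2000 bp II left had 12.9 and IV right 13.7, both under the 13.8 of V right. The middle segment of V had 14.9 there, and V left, at 8.64, lay below all of these. Weak values at these widths were thus not limited to the arms of V. Across peaks, which are not independent, Spearman's rho of width and strength was 0.66 on either arm (n = 396 and 388) and 0.68 to 0.76 on the others. A wider region can gather more reads, so a q-value may depend on width by construction, which was not tested.

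**Figure D5:**
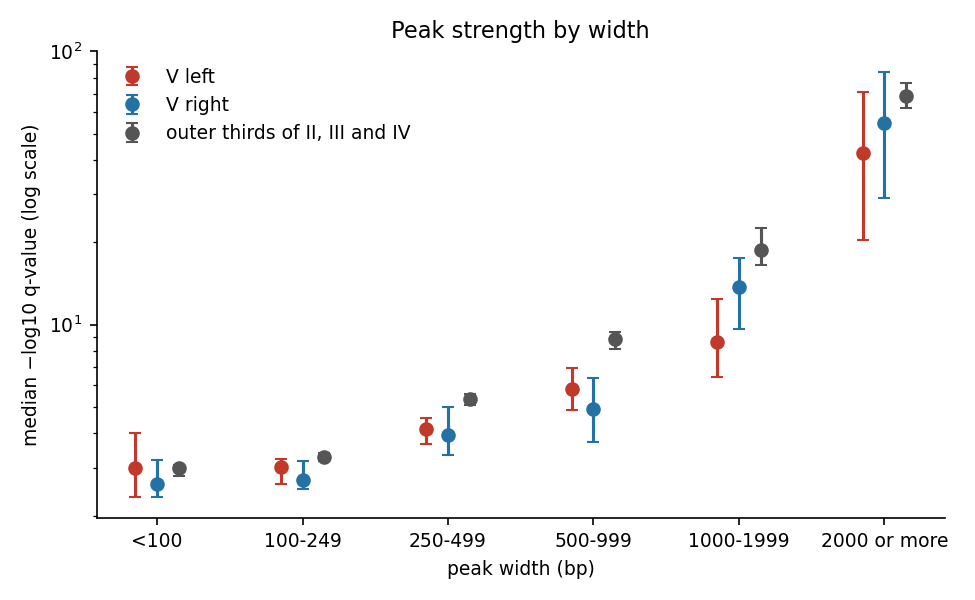
Median −log10 q-value (vertical axis, log scale) of Pol II peaks in 6 width classes (bp) for V left, V right and the pooled outer segments of II, III and IV; bars are 95% order-statistic intervals over peaks. From 250 to under 1000 bp the medians of V, 3.96 to 5.83, lie below the pooled 5.34 and 8.88 of their class.

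No listed peak straddled a border of the arms. The last peak inside the left arm was 6890769 to 6892173 (−log10 q = 25.8) and the first outside was 6998547 to 6999123 (2.52), on either side of position 6949214. At the right border, 13898427, the last peak outside was 13893449 to 13893803 (2.50) and the first inside 13906335 to 13906698 (2.29).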

How the data were processed

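The authors called peaks with PeakSeq on WormBase build WS190, per the file headers and source field, and deposited 1 list, named as combined over samples, with positions and 1 q-value (a p-value corrected for multiple testing) per peak. PeakSeq's version, the aligner and read filters are not given in the sources used here. The largest q-value was 0.00998. Strength is −log10 of the deposited q-value, width is end minus start plus 1, and a gap is the number of bases between neighbouring peaks. Segments, 1 Mb bins, stretches (gaps of at least 50 kb) and islands (runs of peaks between stretches) were computed with scipy 1.17.1, pandas 2.3.3 and numpy 2.4.6 under Python 3.11.15, with figures by matplotlib 3.10.9, and the functions were tested on artificial peak lists. Intervals at 95% are exact binomial for ratios of counts and order-statistic for medians. Only 1 list combined over samples was used, so no value has an error between samples, and depth is unknown.

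Named by rule were, per arm, the 5 peaks with the smallest q-values, the 3 widest, the 3 longest stretches, the 3 islands with the most peaks, and the sparsest and densest full bin. The arms and these rules were chosen with earlier results of this list known. Gene names come from a RefSeq table of another assembly (WBcel235), used for counts per chromosome only.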

Additional observations from a re-analysis of the deposited data

How the results depend on the processing

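Both arms of V stayed below the outer segments of II, III and IV in all 12 alternatives run for each arm. The ratios ran from 0.467 to 0.699 on the left and from 0.450 to 0.678 on the right. The upper ends, 0.699 and 0.678, are ratios of covered length and not of peak density. The highest ratios of peak density were 0.619 and 0.622. The alternative of counting only peaks wholly inside a segment left the ratios at 0.532 and 0.521 and adds no check. Values that left the interval of the full list were 0.467 on the left with arms of 25% of the span, 0.450 on the right with q of at most 1e-05, 0.593 on the left with peaks of at least 200 bp, 0.619 and 0.622 with peaks closer than 2000 bp joined, and 0.699 and 0.678 in covered length. The ratio of left to right arm ranged from 0.910 to 1.14 over 9 alternatives and stayed within its interval. Median widths on the left and right became 981 and 860 bp with q of at most 1e-05, 607 and 585 bp with peaks of at least 200 bp, and 1097 and 679.5 bp after joining at 2000 bp. Median −log10 q-values became 9.41 and 10.9, 5.55 and 5.49, and 5.78 and 5.16 in the same order. Each of these 3 settings removes or merges weak or narrow peaks by construction. Stretches numbered 71 and 68 with gaps of at least 25 kb and 15 and 15 with gaps of at least 100 kb, and were within 1.5 times of 35 and 36 under the 8 other alternatives for each arm. Some of these 8 kept 35 and 36 by construction. Joining peaks closer than 500 or 2000 bp leaves gaps of at least 50 kb as they are, and no peak straddled a border of the arms.

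Alternatives for the density outside stretches were chosen after seeing the data. The ratio became 0.882 and 0.887 with gaps of at least 25 kb and 0.702 and 0.710 with gaps of at least 100 kb. In covered length it turned to 1.07 and 1.11. Covered length is the number of peaks times their mean width, so this ratio differs from that of peak numbers only through mean width. The mean width was 939 bp on V left, 929 bp on V right and 714 bp over the pooled outer segments of II, III and IV. The list gives no value per sample. No paired analysis was possible because only 1 combined list was analysed, and for that reason no replicate could be left out. Depth, which limits weak and narrow peaks most, is unknown.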

Other observations

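Counted against its genes, chromosome V as a whole had the fewest Pol II peaks of the 6 nuclear chromosomes. A RefSeq gene table of a later assembly places 4995 protein-coding genes on V, 25.01% of those on the nuclear chromosomes, while V held 13.4% of the peaks. That is 28.8 peaks per 100 protein-coding genes on V, followed by 40.6 on X, 50.8 on II, 58.1 on IV, 71.8 on III and 91.4 on I. In covered length V had 260 bp per gene, II 358 bp and X 389 bp, and the others from 446 to 491 bp. Per Mb of span X was lowest, with 62.5 peaks against 69.0 on V. The counts are per chromosome, since arms could not be separated across assemblies, and no peak was matched to a gene.

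The genes of V differ in kind from those of other chromosomes by name alone. Of 1308 genes with chemoreceptor names (sr and str families, receptors of sensory neurons), 888 or 67.9% are on V. So are 167 of 269 nhr genes (nuclear hormone receptors, 62.1%), 42 of 67 ugt genes (UDP-glucuronosyltransferases, 62.7%) and 41 of 74 cyp genes (cytochrome P450 enzymes, 55.4%). C-type lectin genes (clec) are spread more widely, with 85 of 239 on V (35.6%). Of 78 ribosomal protein genes (rpl and rps), which every growing cell transcribes, 7 or 8.97% are on V. These families were picked from general knowledge of V and from this table after the peak counts were known, and their part in the peak density of V was not tested.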
